A study of Homo sapiens with 6 samples.

Results

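*CDCA7* and 7 genes that work with it in DNA methylation were followed in SK-Hep1 cells after knockdown of the lncRNA *RAB30-DT*. The 8 genes were chosen by name: *CDCA7*, its paralogue *CDCA7L*, the chromatin remodeller *HELLS*, the transcription factor *ZBTB24*, the maintenance genes *UHRF1* and *DNMT1*, and the de novo methyltransferases *DNMT3A* and *DNMT3B*. They are 8 of the 62700 genes that the deposited values list, and all 8 passed the filter on low values. RNA–Seq covered 3 libraries of control cells, titled shControl but labelled WT for genotype, and 3 libraries labelled RAB30-DT knockdown and titled shRAB30-DT. SK-Hep1 is a human liver tumor line that the study describes as endothelial-derived. According to the methods the knockdown cells carried a lentiviral short hairpin RNA and were selected with puromycin as a stable line, so each group may be 1 selected population, and the labels do not say which hairpin a library carried. The methods describe 2 hairpins against *RAB30-DT*, so the 3 knockdown libraries may not all be replicates of the same one. No further allele, agent or time point is given for either group. The labels do not say whether the 3 libraries of a group came from separate cultures, so p-values measure the spread between these libraries, which may be technical.

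CDCA7 is a zinc finger protein that binds DNA and brings the SNF2-type remodeller HELLS to nucleosomes, where HELLS slides them so that the methylation enzymes can reach the DNA. ZBTB24 switches on the CDCA7 gene. UHRF1 recognises DNA that carries methyl groups on 1 strand only, as it leaves the replication fork, and recruits DNMT1, which copies the mark onto the new strand, whereas DNMT3A and DNMT3B place methyl groups on unmarked DNA. Inherited mutations of DNMT3B, ZBTB24, CDCA7 or HELLS cause the same syndrome, in which immunodeficiency goes with loss of methylation at repeats beside the centromeres. CDCA7 is also a target of MYC and of the E2F factors, which drive entry into S phase. CDCA7L binds MYC as well, through a related sequence. The study asked how RAB30-DT acts on stem-like properties and on splicing, with CDCA7 as one spliced transcript.

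The values are TPM, a level per transcript length in which the genes of each library add up to the same total. *RAB30-DT* itself, the target of the knockdown, was at 18.16, 11.51 and 13.91 TPM in control replicates 1, 2 and 3 and at 11.94, 10.85 and 6.5 TPM in knockdown replicates 1, 2 and 3. Control cells averaged 14.5 ± 3.37 TPM (SD, n = 3) and knockdown cells 9.76 ± 2.88 TPM (SD, n = 3), and the groups overlapped (log2 fold change −0.55, adjusted p = 0.355 from limma). In each library 13732 to 14094 genes reached 1 TPM, and the read depth is unknown because TPM values keep no read number. Of the cell type markers, *ALB*, *APOB*, *TTR* and *HNF4A* of hepatocytes were listed at 0 in all 6 libraries, and no endothelial marker was above 0.36 TPM. *SERPINA1*, another hepatocyte gene, was expressed, at 18.11 to 23.96 TPM in control and 28.25 to 37.19 TPM in knockdown libraries, without overlap (log2 fold change 0.59, adjusted p = 0.192 from limma). *VIM* of mesenchymal cells was at 3793 to 4784 TPM and *KRT8* of epithelial cells at 551 to 1771 TPM, while the epithelial adhesion genes *EPCAM* and *CDH1* were at or near 0. Among the other mesenchymal markers, *SPARC* was at 1141 to 1513 TPM, *FN1* at 12.83 to 22.83 TPM and *CDH2* at 1.77 to 5.54 TPM. *VIM* was higher and *SPARC* lower in knockdown libraries, both without overlap (log2 fold changes 0.25 and −0.30, adjusted p = 0.225 and 0.208 from limma). Over the alternatives the log2 fold change ranged from −0.05 to 0.29 for *VIM*, so its sign was not stable, and from −0.32 to −0.23 for *SPARC*. *FN1* and *CDH2* overlapped. *KRT8* and *KRT18*, the 2 tested of 4 epithelial markers, fell (log2 fold changes −1.18 and −1.03, adjusted p = 0.0354 and 0.0292 from limma), and the summed level of this list was 2224 to 3483 TPM in control and 1193 to 1344 TPM in knockdown libraries. Over the alternatives the adjusted p from limma ranged from 0.000493 to 0.153 for *KRT8* and from 0.00055 to 0.153 for *KRT18*, and both calls were lost with median-of-ratios scaling, with eBayes without trend, with no filter on low values, without control replicate 2 and without any 1 knockdown library, that of *KRT8* also with quantile normalization. The part of these markers in the results that follow was not tested. Values of each library also followed the GC content of the transcripts, with a Spearman correlation across the 14020 tested genes between GC content and the deviation from the mean of the library's group of −0.701 in control replicate 1, 0.285 in control replicate 2 and 0.556 in control replicate 3. The 3 knockdown libraries gave −0.645, 0.235 and 0.544.

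*CDCA7* lies on the plus strand of chromosome 2 at chr2:173354820-173368997 (hg38, ENSG00000144354.15) and *HELLS* on the plus strand at chr10:94545329-94613905 (ENSG00000119969.16). *UHRF1* lies on the plus strand at chr19:4903080-4962154 (ENSG00000276043.5) and *DNMT1* on the minus strand at chr19:10133342-10231286 (ENSG00000130816.17). *CDCA7L* is at chr7:21900899-21945903 on the minus strand (ENSG00000164649.20), inside which *DNAH11* overlaps on the other strand. *ZBTB24* is at chr6:109460632-109483239 on the minus strand (ENSG00000112365.6), and *MICAL1* overlaps it on the same strand. *DNMT3A* is at chr2:25227855-25342590 on the minus strand (ENSG00000119772.19) and *DNMT3B* at chr20:32762385-32809359 on the plus strand (ENSG00000088305.19). The strand setting used in counting is not given in the sources used here, so reads of overlapping genes could be shared. *DNAH11* was at 0.14 to 2.31 TPM, far below *CDCA7L*. *MICAL1* was at 12.88 to 19.87 TPM, above *ZBTB24*, so the value of *ZBTB24* is the more uncertain of the pair. *S1PR2* overlaps *DNMT1* on the same strand and was at 0.37 to 1.61 TPM.

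The promoters of *CDCA7*, *HELLS*, *UHRF1* and *DNMT1* are shown first, because these genes had the lowest fold changes and carried letters of the E2F binding motif near the start. Each run holds the 120 bases before the transcription start and the first 30 bases from it, in the direction of the gene, from RefSeq on GRCh38.p14. Capitals mark matches to TTTCCCGC, TTTGGCGC, TTTCGCGC or TTTGCCGC on either strand. *CDCA7L* is printed beside them as the paralogue without a match. The windows are chr2:173354752-173354901 for *CDCA7*, chr10:94545668-94545817 for *HELLS*, chr19:4909381-4909530 for *UHRF1*, chr19:10194924-10195073 for *DNMT1* and chr7:21945870-21946019 for *CDCA7L*.
CDCA7: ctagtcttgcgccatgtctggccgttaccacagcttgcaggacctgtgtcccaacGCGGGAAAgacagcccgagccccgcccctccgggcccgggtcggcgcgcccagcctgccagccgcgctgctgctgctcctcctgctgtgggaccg
HELLS: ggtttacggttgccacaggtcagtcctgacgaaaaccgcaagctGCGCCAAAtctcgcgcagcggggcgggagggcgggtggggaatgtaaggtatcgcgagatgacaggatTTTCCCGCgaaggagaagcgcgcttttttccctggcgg
UHRF1: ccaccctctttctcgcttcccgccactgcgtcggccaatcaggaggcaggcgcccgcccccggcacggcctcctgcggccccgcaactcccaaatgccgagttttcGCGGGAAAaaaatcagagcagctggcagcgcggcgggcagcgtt
DNMT1: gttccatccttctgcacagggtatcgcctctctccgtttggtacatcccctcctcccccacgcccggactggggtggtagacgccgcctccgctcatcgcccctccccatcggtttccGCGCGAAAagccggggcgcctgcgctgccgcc
CDCA7L: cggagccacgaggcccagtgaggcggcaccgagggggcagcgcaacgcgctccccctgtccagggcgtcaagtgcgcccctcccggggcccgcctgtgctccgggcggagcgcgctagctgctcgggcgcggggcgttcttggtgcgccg

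The match in *CDCA7* lay 65 to 58 bases before the start, and that in *UHRF1* 14 to 7 bases before it. *HELLS* carried a match 76 to 69 bases before the start and another that ended 1 base before it. The match in *DNMT1* spanned the start itself, from 2 bases before it. A second *UHRF1* promoter, farther downstream in the gene, held a match 160 to 153 bases before its start. Over windows of 250 bases before and 50 bases after the start, at least 1 match was found in 4 of the 8 genes (50.0%), against 696 of the 10093 tested genes with a RefSeq promoter (6.90%) and 1164 of 35116 promoters in all (3.31%). Among genes of S phase it was 17 of 30 with a promoter in the table (56.7%), and among genes of G2 and mitosis 3 of 33 (9.09%). *DNMT3A*, with 6 promoters, *DNMT3B*, *ZBTB24* and *CDCA7L* held none in these windows. The 4 words were chosen after these promoters had been read, so that choice may have raised the 50.0% among the 8 genes. Its comparison with the other shares is therefore no test, and a part of E2F factors was not tested. The matches are letters and not measured binding, and a window without such a match says nothing of the factor. The E-box CACGTG, the core motif of *MYC*, was found in *ZBTB24* and in *DNMT3A* and in 12.7% of the tested genes.

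*CDCA7* was lower in each of the knockdown libraries than in any control library. It was at 62.34, 46.72 and 38.85 TPM in control replicates 1, 2 and 3, and at 36.68, 29.98 and 23.59 TPM in knockdown replicates 1, 2 and 3. The highest knockdown value was just under the lowest control value. Control cells averaged 49.3 ± 12.0 TPM (SD, n = 3) and knockdown cells 30.1 ± 6.55 TPM (SD, n = 3), which is 61.0% of control. The log2 fold change was −0.69 with a standard error of 0.24 and a 95% interval of −1.24 to −0.14, and its adjusted p of 0.202 from limma did not pass the threshold of 0.05. The exact two-sided permutation test of TPM gave p = 0.1, the smallest that 3 libraries against 3 allow. The spread among controls was wide beside the gap between the groups: control replicate 1 exceeded control replicate 3 by more than control replicate 3 exceeded knockdown replicate 1.

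*HELLS*, the remodeller that *CDCA7* recruits, had about the same pattern over the libraries at a lower level. It was at 42.36, 27.51 and 23.48 TPM in control and at 20.51, 14.64 and 13.08 TPM in knockdown replicates 1, 2 and 3. The groups did not overlap, and replicate 1 was the highest of each. The mean of knockdown cells was 51.7% of the control mean, with a log2 fold change of −0.89 (standard error 0.27, 95% interval −1.51 to −0.28, adjusted p = 0.152 from limma). *ZBTB24*, the activator of *CDCA7*, overlapped between groups. It was at 9.63, 7.9 and 5.21 TPM in control and at 7.86, 6.18 and 5.41 TPM in knockdown replicates, with a log2 fold change of −0.18 (95% interval −0.78 to 0.43, adjusted p = 0.776 from limma). Control replicate 3 was the lowest of the 6 libraries for *ZBTB24*.

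*UHRF1* and *DNMT1*, the pair that maintains methylation at the replication fork, had the lowest adjusted p of the 8 genes, still above 0.05. *UHRF1* was at 73.43, 87.81 and 119.19 TPM in control replicates 1, 2 and 3 and at 39.18, 52.37 and 52.1 TPM in the knockdown replicates. No knockdown value reached the lowest control. Its mean in knockdown cells was 51.2% of control (log2 fold change −0.93, standard error 0.22, 95% interval −1.44 to −0.43, adjusted p = 0.0949 from limma). *DNMT1* was at 106.21, 130.64 and 177.99 TPM in control and at 69.64, 78.37 and 71.81 TPM in the knockdown replicates. The 3 knockdown libraries lay within a narrow range, whereas control replicate 3 stood well above the other two. Its mean was 53.0% of control (log2 fold change −0.88, standard error 0.21, 95% interval −1.35 to −0.40, adjusted p = 0.0922 from limma).

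The de novo methyltransferases were expressed at low levels. *DNMT3A* was at 6.38, 10.66 and 6.95 TPM in control and at 4.36, 5.75 and 5.45 TPM in knockdown replicates. The groups did not overlap, and control replicate 2 was far above the other controls. The log2 fold change was −0.52 with a 95% interval of −1.08 to 0.05 (adjusted p = 0.335 from limma). *DNMT3B* was at 3.86, 5.81 and 6.71 TPM in control and at 4.03, 6.27 and 4.65 TPM in knockdown replicates, with the lowest value of all in a control library. Its log2 fold change was −0.10 with a 95% interval of −0.71 to 0.50 (adjusted p = 0.88 from limma).

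*CDCA7L* was the only one of the 8 with a positive estimate. It was at 102.12, 78.34 and 84.76 TPM in control and at 106.8, 102.61 and 78.88 TPM in knockdown replicates. The groups overlapped, and knockdown replicate 3 lay beside the lowest control. The log2 fold change was 0.12 with a 95% interval of −0.31 to 0.54 (adjusted p = 0.794 from limma), which leaves room for a level between 0.808 and 1.45 times that of control.

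**Figure D1:**
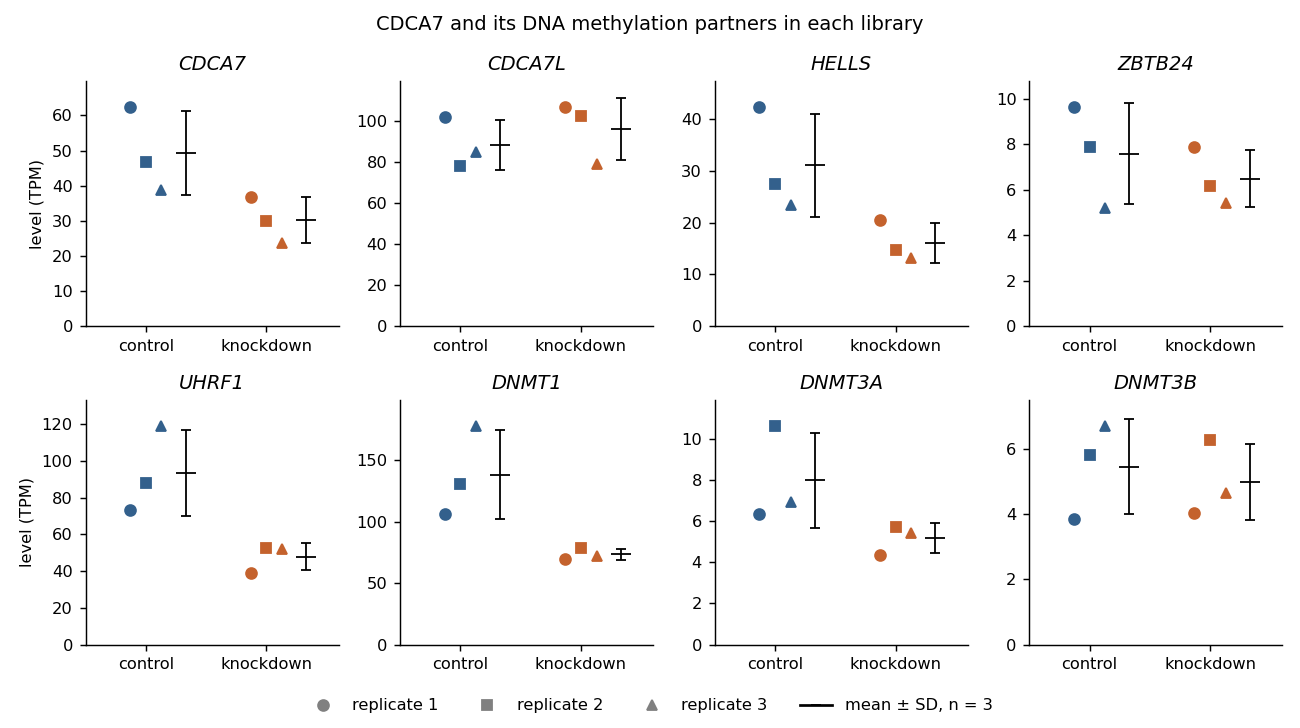
Level of each of the 8 genes in TPM (vertical axes from 0, each panel with its own scale) in 3 control libraries (blue) and 3 knockdown libraries (orange), where the marker shape gives the replicate and the bar the mean ± SD. The orange points lie below all blue points for CDCA7, HELLS, UHRF1, DNMT1 and DNMT3A, and overlap them for CDCA7L, ZBTB24 and DNMT3B.

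None of the 8 genes passed an adjusted p of 0.05 from limma, against 146 of the 14020 genes tested (1.04%), of which 52 were higher and 94 lower than in control cells (0.67% of the genes tested). Median-of-ratios scaling gave 60 higher and 69 lower, and quantile normalization 78 and 83, with none of the 8 among them. At an unadjusted p under 0.05 there were 4 of the 8 and 2350 of all genes tested. All knockdown libraries were below all controls for 5 of the 8 genes, *CDCA7*, *HELLS*, *UHRF1*, *DNMT1* and *DNMT3A*, and 13.4% of the tested genes had such a pattern. The opposite pattern held for none of the 8 and for 9.89% of the tested genes. The median log2 fold change was −0.60 over the 8 genes and −0.04 over all genes tested. Less RNA per cell and fewer cells that express a gene, such as fewer cells in S phase, cannot be told apart in these bulk libraries.

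In control cells the order of levels was *DNMT1* (138 ± 36.5 TPM), *UHRF1* (93.5 ± 23.4), *CDCA7L* (88.4 ± 12.3), *CDCA7* (49.3 ± 12.0), *HELLS* (31.1 ± 9.94), *DNMT3A* (8.0 ± 2.32), *ZBTB24* (7.58 ± 2.23) and *DNMT3B* (5.46 ± 1.46), each a mean and SD in TPM over 3 libraries. The ranges of neighbours overlapped in this order except between *CDCA7L* and *CDCA7* and between *HELLS* and *DNMT3A*. In knockdown cells *CDCA7L* came first with 96.1 ± 15.1 TPM, ahead of *DNMT1* with 73.3 ± 4.55 TPM and *UHRF1* with 47.9 ± 7.54 TPM. The ranges of the first 6 genes in that order were apart from each other, and those of *ZBTB24*, *DNMT3A* and *DNMT3B* overlapped.

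The 4 genes with the lowest estimates split into pairs by their replicates. *CDCA7* and *HELLS* were highest in control replicate 1 and *UHRF1* and *DNMT1* in control replicate 3. The canonical transcripts of *CDCA7* and *HELLS* have a GC content of 42.0% and 38.8%, and those of *UHRF1* and *DNMT1* of 55.7% and 54.9%, on either side of the median of 48.7% over the tested genes. When the trend with GC content was removed from each library, the SD of log2(TPM + 1) among controls went from 0.337 to 0.124 for *CDCA7*, from 0.427 to 0.121 for *HELLS*, from 0.35 to 0.179 for *UHRF1* and from 0.372 to 0.219 for *DNMT1*. The differences between groups moved less, to log2 fold changes of −0.72 for *CDCA7*, −0.95 for *HELLS*, −0.90 for *UHRF1* and −0.85 for *DNMT1*.

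**Figure D2:**
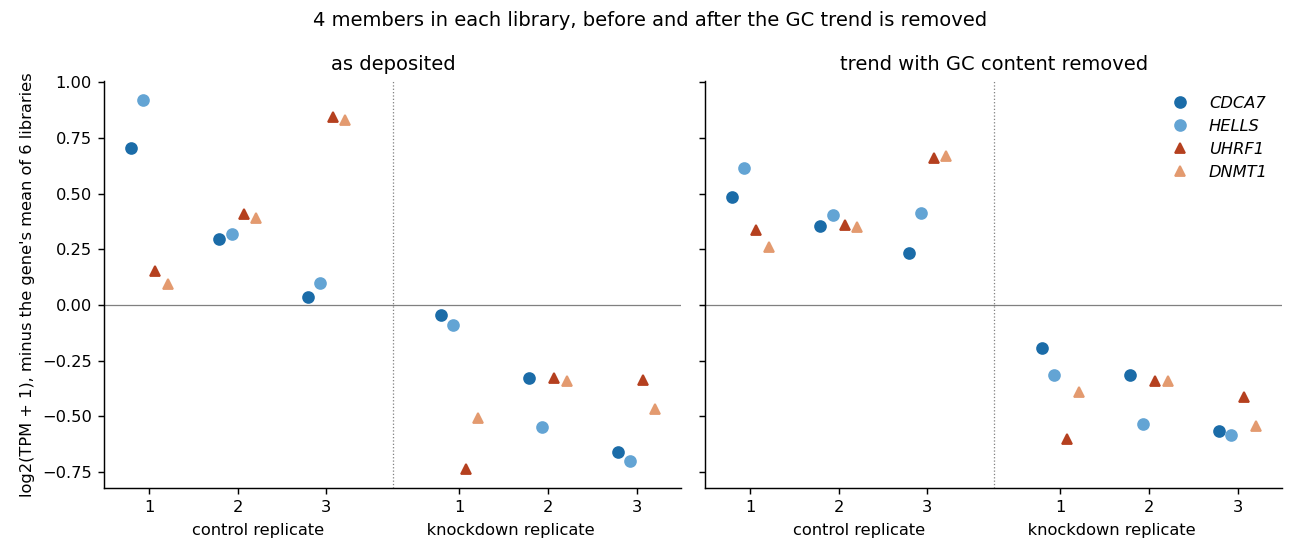
Deviation of log2(TPM + 1) from each gene's mean over 6 libraries (vertical axis) for CDCA7, HELLS, UHRF1 and DNMT1 in the 3 control and 3 knockdown libraries, as deposited (left) and with the trend on GC content removed (right). CDCA7 and HELLS (circles) and UHRF1 and DNMT1 (triangles) lie far apart in control replicates 1 and 3 on the left and closer on the right, and all controls lie above all knockdown libraries in both panels.

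With the GC trend removed these 4 genes passed the test, with adjusted p from limma of 0.0262 for *CDCA7*, 0.0116 for *HELLS*, 0.0131 for *UHRF1* and 0.0167 for *DNMT1*, where 5.77% of the genes tested were called lower. The adjusted p ranged over all 19 alternatives from 0.0165 to 0.494 for *CDCA7*, from 0.0086 to 0.448 for *HELLS*, from 0.00587 to 0.313 for *UHRF1* and from 0.00354 to 0.318 for *DNMT1*. Weights for each library (limma's arrayWeights) called the same 4 genes and *DNMT3A* (adjusted p = 0.0192, with a range over the alternatives of 0.0192 to 0.655), where 13.8% of the genes tested were called lower. That fit rested mainly on replicate 2 of each group, with weights of 3 and 4.39, against 0.316 to 0.948 for the other libraries. A block on the replicate number called *CDCA7*, *HELLS*, *UHRF1* and *DNMT1* (adjusted p = 0.0352, 0.0274, 0.0245 and 0.0384 from limma). Under that block 550 of the 14020 genes tested were called lower. With 1 library left out at a time the log2 fold change ranged from −0.84 to −0.51 for *CDCA7*, from −1.07 to −0.65 for *HELLS*, from −1.09 to −0.75 for *UHRF1* and from −1.05 to −0.68 for *DNMT1*. *UHRF1* and *DNMT1* passed the test without control replicate 1, with adjusted p of 0.0352 and 0.03 from limma. In that fit 307 of the 14006 genes tested were called lower. *CDCA7L*, *ZBTB24* and *DNMT3B* passed the test under none of the 19 alternatives. The sign of *DNMT3B* turned without control replicate 3 (0.04) and without knockdown replicate 1 (0.01).

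**Figure D3:**
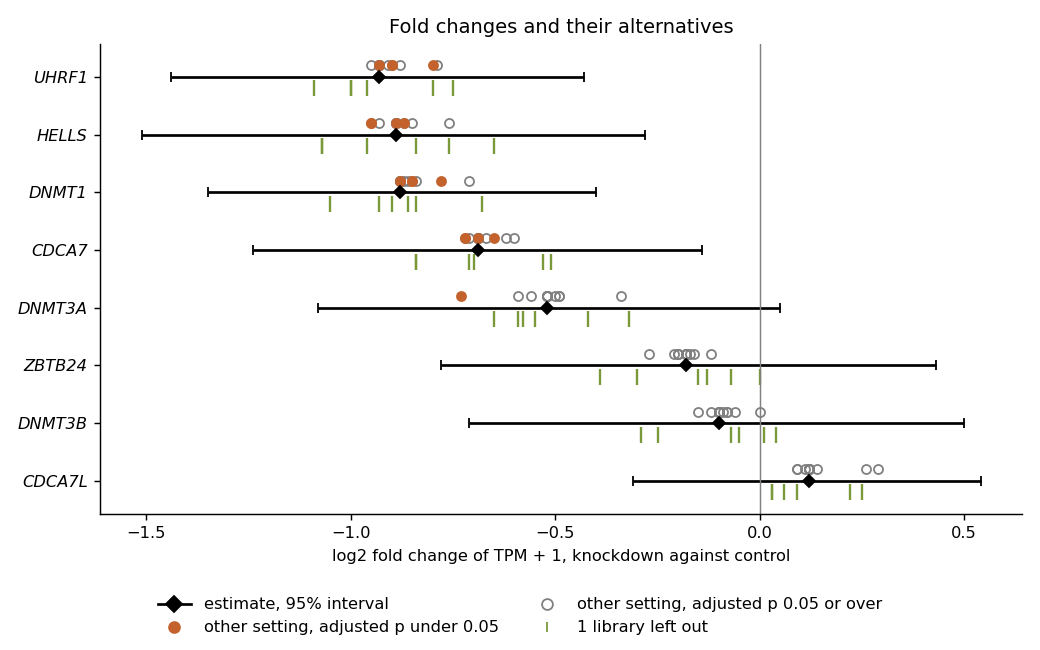
Log2 fold change of TPM + 1 in knockdown against control cells (horizontal axis) for the 8 genes, with the 95% interval (black), the estimates under 13 other settings (circles, filled where the adjusted p was under 0.05) and those with 1 of the 6 libraries left out (green ticks). All estimates of UHRF1, HELLS, DNMT1, CDCA7 and DNMT3A lie left of 0, and the intervals of DNMT3A, ZBTB24, DNMT3B and CDCA7L hold 0.

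Ratios between 2 genes of the same library do not depend on the scaling between libraries. The level of *CDCA7* relative to *HELLS* was 1.47, 1.7 and 1.65 in control and 1.79, 2.05 and 1.8 in knockdown replicates 1, 2 and 3. The ratio was higher in each knockdown library than in any control, by 0.20 on the log2 scale of TPM + 1. The exact permutation test gave p = 0.1, and 0.2 after adjustment over the 4 ratios. The difference was 0.13 with a pseudocount of 5 and 0.14 without control replicate 1 (exact permutation p = 0.2 and 0.3). Its sign was the same under all 10 alternatives of this ratio. *CDCA7* relative to its paralogue *CDCA7L* was 0.61, 0.596 and 0.458 in control and 0.343, 0.292 and 0.299 in knockdown replicates. The groups did not overlap, and the log2 ratio was −0.85 in control and −1.65 in knockdown cells (difference −0.81, exact permutation p = 0.1, adjusted p = 0.2).

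*UHRF1* relative to *DNMT1* was nearly constant among controls, at 0.691, 0.672 and 0.67, although *UHRF1* alone ranged from 73.43 to 119.19 TPM and *DNMT1* from 106.21 to 177.99 TPM there. Their canonical transcripts have a similar GC content, 55.7% and 54.9%. With the GC trend removed, log2(TPM + 1) in control replicates 1, 2 and 3 was 6.3, 6.32 and 6.62 for *UHRF1*. For *DNMT1* it was 6.84, 6.93 and 7.25, so the 2 genes still rose together. What keeps this ratio even among controls was not tested. In knockdown replicates 1, 2 and 3 the ratio was 0.563, 0.668 and 0.726, and the groups overlapped (difference −0.06 on the log2 scale, exact permutation p = 0.8, adjusted p = 0.8). *DNMT3A* relative to *DNMT3B* was 1.65, 1.83 and 1.04 in control and 1.08, 0.917 and 1.17 in knockdown replicates, again with overlap (difference −0.42, exact permutation p = 0.3, adjusted p = 0.4). No ratio could pass 0.05, since the exact test of 3 libraries against 3 cannot go below p = 0.1.

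**Figure D4:**
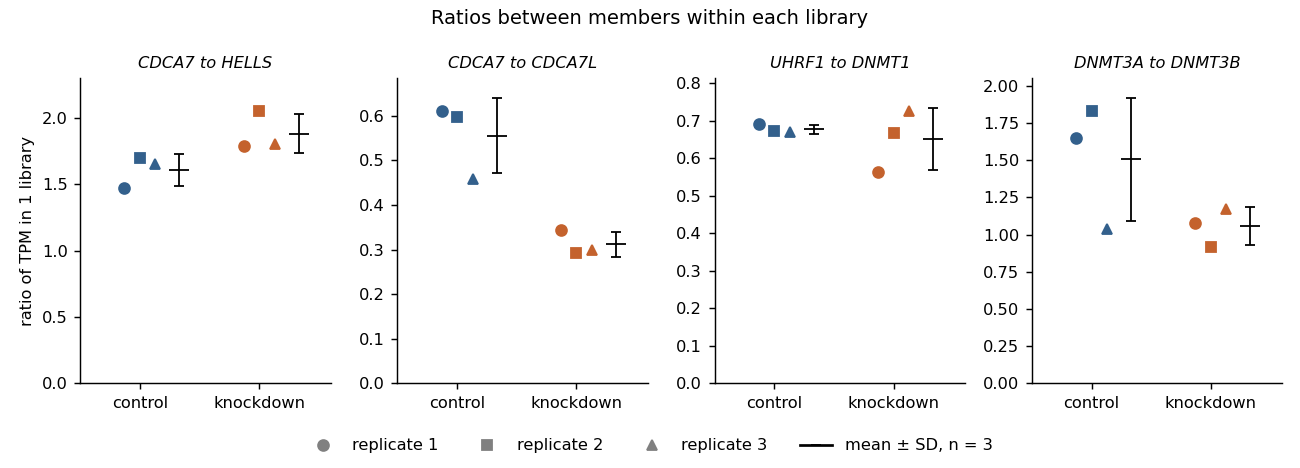
Ratio of TPM between 2 genes within each library (vertical axes from 0) for 4 pairs, in 3 control (blue) and 3 knockdown libraries (orange), with the marker shape for the replicate and bars for the mean ± SD. The ratio of CDCA7 to CDCA7L lies between 0.458 and 0.61 in control and between 0.292 and 0.343 in knockdown libraries, while the ratio of UHRF1 to DNMT1 overlaps between groups.

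The genes of S phase, on a list that leaves out the 8 genes, were all lower in knockdown cells on average. All 40 of 40 had a negative log2 fold change (median −0.70), as did 7531 of all 14020 genes tested. Of the 40, 4 passed the test. These were *CDC45* (−1.20, adjusted p = 0.047), *MCM3* (−1.09, adjusted p = 0.0252), *MCM6* (−1.07, adjusted p = 0.0417) and *MCM4* (−0.98, adjusted p = 0.0291), all from limma and all parts of the helicase that opens DNA for replication. None of the 40 passed with no filter on low values, without control replicate 2 or without any 1 knockdown library, 1 passed with eBayes without trend and 2 with median-of-ratios scaling. Quantile normalization and arrayWeights each left 1 of the 40 with a positive estimate. Set against the median of these 40 genes in the same library, *CDCA7* was at −0.09, −0.37 and −0.63 on the log2 scale in control and at −0.10, −0.34 and −0.46 in knockdown replicates 1, 2 and 3. The groups overlapped and differed by 0.06. *HELLS*, *UHRF1* and *DNMT1* differed by −0.14, −0.18 and −0.13 in this measure, each with overlap. *CDCA7L* was at 0.37 to 0.62 in control and at 1.24 to 1.41 in knockdown libraries, without overlap, a difference of 0.87. *ZBTB24*, too, did not overlap, with a difference of 0.58. The S phase median itself was lower in knockdown cells, so a gene with an unchanged level rises in this measure. On their own levels *CDCA7L* and *ZBTB24* overlapped between groups (log2 fold changes 0.12 and −0.18). The share of all tested genes without overlap against this median was not counted. The comparison with the S phase median was added after the values had been seen and has no test.

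The genes of G2 and mitosis were lower on average as well, 39 of 39, with a smaller median of −0.36, and *AURKA*, a kinase of the spindle poles, passed the test (−1.05, adjusted p = 0.0252 from limma). *TMPO*, a protein of the nuclear lamina, was next with −0.75 (adjusted p = 0.152). The call of *AURKA* was lost with no filter on low values, without control replicate 2 and without any 1 knockdown library (adjusted p up to 0.153). Quantile normalization and arrayWeights each left 4 of the 39 with a positive estimate, and there were 7 without control replicate 1 (median −0.24) and 6 without knockdown replicate 3 (median −0.25). The 5 other genes named CDCA share the name and no known function with *CDCA7*, and all 5 had negative estimates that did not pass the test (median −0.36). *CDCA3* was at 72.09, 93.09 and 101.25 TPM in control and at 61.06, 61.52 and 65.05 TPM in knockdown replicates (log2 fold change −0.49, adjusted p = 0.219), and *CDCA5*, which protects cohesin, had −0.43 (adjusted p = 0.444).

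Cofactors of methylation maintenance and targeting were lower for 15 of 17 tested genes (median −0.35), and none passed the test. *LIG1*, the ligase that joins Okazaki fragments and binds *UHRF1* through a methylated lysine, was at 46.76, 48.39 and 68.56 TPM in control and at 30.02, 34.18 and 31.37 TPM in knockdown replicates (log2 fold change −0.74, adjusted p = 0.121 from limma). *SUV39H1*, a methyltransferase of heterochromatin, had −0.68 (adjusted p = 0.276). *DNMT3L*, the cofactor of *DNMT3A* and *DNMT3B* in germ cells, was listed at 0 in every library. *PCNA* stands on both this list and that of S phase.

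The methyl-CpG readers, which bind methylated DNA, split into 3 higher and 7 lower (median −0.10), with *ZBTB4* at 0.39 (adjusted p = 0.472) and *MBD3*, a subunit of NuRD, at −0.39 (adjusted p = 0.636). Genes of oxidation and base excision split into 3 and 5 (median −0.04), with *XRCC1* at −0.37 (adjusted p = 0.461) and *IDH1* at 0.26 (adjusted p = 0.756). For the supply of methyl donors it was 2 higher and 6 lower (median −0.30). *MTR*, which makes methionine from homocysteine, was at 26.51, 20.46 and 15.34 TPM in control and at 13.5, 12.1 and 12.12 TPM in knockdown replicates (log2 fold change −0.65, adjusted p = 0.204), and *SLC19A1*, a folate carrier, had −0.46 (adjusted p = 0.518). None of these 3 lists had a gene past the test.

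Of 20 other SNF2 remodellers, relatives of *HELLS*, 8 were higher and 12 lower (median −0.16), and none passed the test. The lowest were *RAD54L*, which acts in homologous recombination (−0.84, adjusted p = 0.152 from limma), and *INO80* (−0.76, adjusted p = 0.106). The split became 2 higher and 18 lower without control replicate 3 and likewise without knockdown replicate 1. *SMARCA5* and *CHD4*, among the most used remodellers, had 0.04 and −0.25 (adjusted p = 0.959 and 0.576), named here after their values were seen. Among 20 *MYC* and E2F regulators 10 were higher and 10 lower (median −0.03), and 6 higher and 14 lower without control replicate 3 (median −0.16) or without knockdown replicate 1 (median −0.09). *E2F1*, an activator of S phase genes, was at 25.17, 40.08 and 78.59 TPM in control and at 12.55, 17.55 and 19.86 TPM in knockdown replicates (log2 fold change −1.34, adjusted p = 0.143), and *MXD3*, a partner of MAX, had −1.11 (adjusted p = 0.247).

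**Figure D5:**
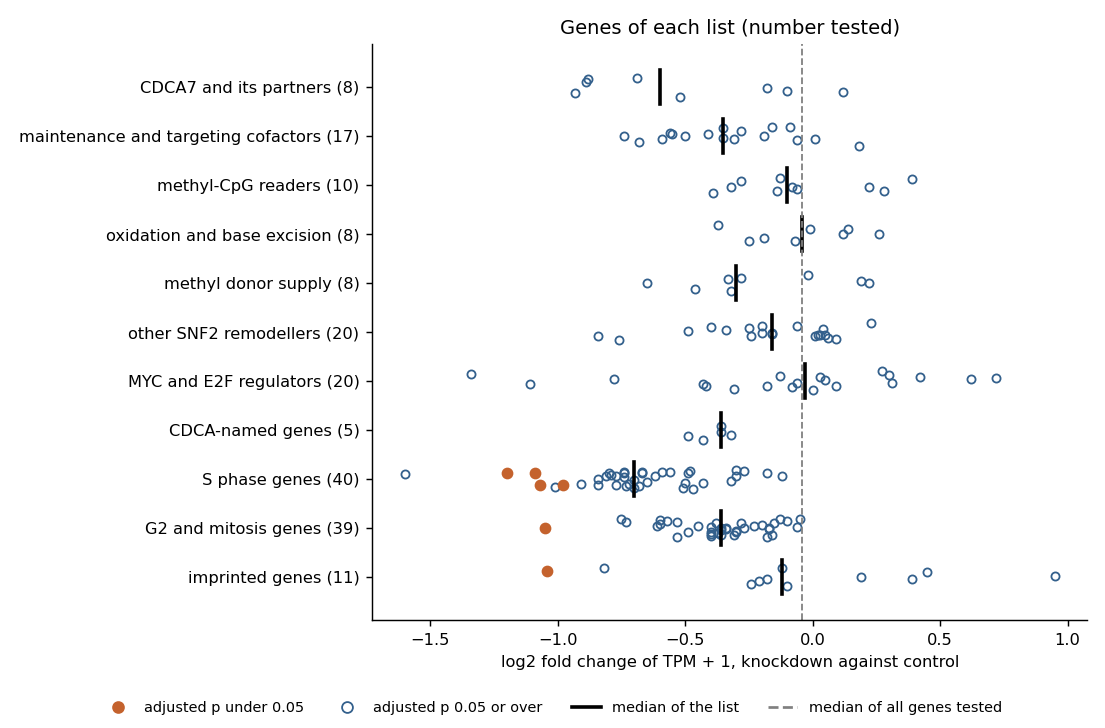
Log2 fold change of TPM + 1 in knockdown against control cells (horizontal axis) for every tested gene of 11 lists, 1 list a row with the number tested, where filled orange points had an adjusted p under 0.05, black bars are medians and the dashed line is the median of all genes tested. The points of the S phase list all lie left of 0 with a median of −0.70, beside −0.60 for CDCA7 and its partners and −0.10 for the methyl-CpG readers.

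Germline genes, which DNA methylation keeps silent outside germ cells, were at or near 0 in both groups. None of 25 germline genes reached the mean of 1 TPM needed for the test, and 19 were listed at 0 in all 6 libraries. The highest single value was 1.49 TPM, of *SYCP3* in control replicate 1, and their summed level was 1.02 to 2.58 TPM in control and 0.69 to 0.82 TPM in knockdown libraries. Of 24 imprinted genes, 11 were tested, 4 higher and 7 lower (median −0.12). *GRB10*, an adaptor of the insulin receptor, fell: it was at 16.2, 14.84 and 13.64 TPM in control and at 6.8, 6.72 and 6.63 TPM in knockdown replicates (log2 fold change −1.04, adjusted p = 0.0432 from limma). That call was lost with no filter on low values, without control replicate 2 and without any 1 knockdown library (adjusted p up to 0.23). *ZDBF2* was at 3.94, 2.87 and 1.44 TPM in control and at 7.29, 6.34 and 4.54 TPM in knockdown replicates, without overlap (0.95, adjusted p = 0.19). DNA methylation itself was not measured.

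Among the 5 genes with the profile most like that of *CDCA7* over the 6 libraries, by the root mean square difference of log2(TPM + 1) after each gene was centred on its mean, were *BMAL2* (0.0396), *POLA1* (0.0419), *TBL1XR1* (0.0576) and *HSP90AA1* (0.0755). *POLA1*, the catalytic subunit of the polymerase that starts each new strand, was at 18.48, 12.96 and 11.47 TPM in control and at 10.01, 8.47 and 6.15 TPM in knockdown replicates. In these 4, replicate 1 of either group was the highest, as for *CDCA7*. *HELLS* ranked 78th by this measure among 14019 genes (0.132) and *ZBTB24* 1258th (0.273), and *UHRF1* (0.509) lay near the median gene (0.498). The measure holds the trend with GC content that the libraries share.

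The values are sums over all transcripts of a gene, so the splice forms of *CDCA7* that the study compared were not measured here. Of 14 annotated *CDCA7* transcripts, 2 hold the whole of exon 3, 2 hold part of it and 10 hold none of it. Exon 3 of the canonical transcript lies at chr2:173359255-173359491 and has 237 bases. The primers that the study designed for the 2 forms are printed to show where they differ, and capitals mark the 7 bases of the junction primer that lie in exon 2, which follow the 12 bases in exon 4 in the run as printed.
CDCA7-V1-F: tccatggaaacctcgtcatcc
CDCA7-V1-R: actttctgaaaagccgcaga
CDCA7-V2-F: ccatggaaacctcgtcatcct
CDCA7-V2-R: tgactgcagcctCGTGTTT

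The V1 reverse primer lies in exon 3, at chr2:173359328-173359347 on the minus strand, and matched 2 of the 14 transcripts. The V2 reverse primer matched 7 transcripts, all without exon 3. Both forward primers lie in exon 2 and matched 11 of the 14 transcripts. A gene level of 30.1 TPM in knockdown cells therefore adds up forms with and without exon 3 in a proportion that these values do not hold.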

How the data were processed

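RNA–Seq values of 6 SK-Hep1 libraries were analysed, 3 control and 3 *RAB30-DT* knockdown, grouped by the sample labels. The authors deposited gene-level TPM values with 2 decimals, 1 table per library, from poly-A selected, paired-end libraries. The methods name fastp, STAR and RSEM, whereas the submitters' processing notes list fastp and HISAT2 (2.0.5) with hg38, so the aligner is uncertain. The methods name a later GENCODE release, but all 62700 identifiers matched release 44, which gave symbols, positions and GC content. TPM values hold no read count, so the depth is unknown and the precision comes from the 3 libraries of a group alone.

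Values were analysed as log2(TPM + 1) with limma 3.58.1 in R 4.3.3 (lmFit, eBayes with trend, two-sided, no replicate block) on the 14020 genes that averaged 1 TPM or more, with Benjamini–Hochberg adjustment over all of them and a threshold of 0.05. Fold changes on this scale understate those of low genes. Ratios were tested by exact permutation over libraries in Python 3.11.15. Lists were described by counts and medians. Both procedures were tested on simulated data. The 8 genes and the lists were chosen with earlier results of these data known. Named genes were the 8, *RAB30-DT*, in each list the called genes or else those with the largest absolute log2 fold change until 2 were named, and the 5 nearest to *CDCA7* in profile, of which 1 is not reported here. Alternatives were pseudocounts of 0.1 and 5, no filter or one at 5 TPM, quantile normalization, median-of-ratios scaling, rescaling after mitochondrially encoded genes were left out, removal of the GC trend (loess, span 0.3), eBayes without trend or robust, arrayWeights, a replicate block with and without the GC correction, and each library left out. Motif words, the comparison with the S phase median and 2 remodellers were added after the data were seen.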

Additional observations from a re-analysis of the deposited data

How the results depend on the processing

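All 8 genes kept the sign of their log2 fold change under each of the 19 alternatives, apart from *DNMT3B*, at 0.04 without control replicate 3 and 0.01 without knockdown replicate 1. The kept sign means little for *ZBTB24* without control replicate 1 (−0.00366) and for *DNMT3B* with arrayWeights (−0.00185). None of the 8 was called in the reported analysis, 4 were called with the GC trend removed, 5 with arrayWeights, and 0 to 2 with 1 library left out, where the 2 were *UHRF1* and *DNMT1* without control replicate 1. In all 3 of these settings more of all genes passed, 1266 with the GC trend removed, 3218 with arrayWeights and 489 without control replicate 1, against 146. The log2 fold changes that newly passed were −0.72 (*CDCA7*), −0.95 (*HELLS*), −0.90 (*UHRF1*) and −0.85 (*DNMT1*) with the GC trend removed, and −0.65, −0.87, −0.80 and −0.78 for the same genes and −0.73 for *DNMT3A* with arrayWeights. With 1 library left out, *UHRF1* ranged from −1.09 to −0.75, *DNMT1* from −1.05 to −0.68 and *DNMT3B* from −0.29 to 0.04. No filter on low values left 13 of 27381 genes called, and leaving out any of control replicate 2 or the 3 knockdown libraries left 12 to 18, none of them among the 8. For the S phase list the 4 called genes became 30 with the GC trend removed, 29 with arrayWeights, 24 with the replicate block, 0 with no filter, 1 with eBayes without trend and 2 with median-of-ratios scaling. With 1 library left out it had 0 to 7, 7 without control replicate 1 and 0 without control replicate 2 or any 1 knockdown library.

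The groups share replicate numbers, which the labels do not tie to a shared culture or day. Deviations from the group mean correlated by 0.41, 0.0359 and 0.279 between libraries of the same number, and by −0.355 to 0.111 between those of different numbers. The reported analysis, in which none of the 8 passed, did not treat same-numbered libraries as pairs. With the replicate number as a block, 861 of the 14020 genes tested were called, 550 of them lower. The lower ones held 4 of the 8 (*CDCA7* −0.69, *HELLS* −0.89, *UHRF1* −0.93, *DNMT1* −0.88). With the block and the GC trend removed 1079 were called, 701 of them lower, with the same 4 (−0.72, −0.95, −0.90 and −0.85). Both libraries of number 1 and both of number 3 correlated best with their own number, and those of number 2 did not, a hint from the data and not the design. The correlation of these deviations with GC content was alike within each number. In control and knockdown it was −0.701 and −0.645 for number 1, 0.285 and 0.235 for number 2, and 0.556 and 0.544 for number 3. The source of this likeness was not tested. For the 4 ratios the block left the differences as they were, and the exact sign-flip test of 3 pairs cannot go below p = 0.25. The sign of the ratio of *UHRF1* to *DNMT1* turned to 0.04 without knockdown replicate 1, and ranged from −0.14 to 0.04 with 1 library left out.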
